A study of Homo sapiens with 4 samples.

Results

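The ligands of the TNF superfamily that tumour cells can present to lymphocytes were examined in Hs746T cells after MET was inhibited or depleted. The 10 genes were TNFSF4, TNFSF9, CD70, TNFSF10, TNFSF12, TNFSF13, TNFSF13B, TNFSF14, TNFSF15 and TNFSF18, and each probe of the array whose RefSeq accession or symbol named one of them was taken, without regard to its signal. This gave 12 probes of 34127, for 10 of the 19740 genes that the array could be shown to hold by name.

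Hs746T is an established gastric carcinoma line that carries both a MET exon-skipping mutation and an amplification of MET, a receptor tyrosine kinase. RNA of these cells was hybridised to 4 single-colour Agilent arrays on 1 slide, with 1 array per condition. The cells had received DMSO, the MET kinase inhibitor PHA665752 in comparison with that DMSO control, a scrambled control siRNA (sc siRNA) or an siRNA against MET, and the siRNA arrays were made 48 h after transfection with Lipofectamine. The dose and the time of PHA665752 on the array are not given in the sources used here.

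Ligands of this family are mostly membrane proteins that act as trimers, on the cell surface or after being cut off, and each engages one or a few receptors of the TNF receptor superfamily on another cell. The receptors recruit TRAF adaptors, which lead to NF-kappaB activation, or, in the death receptors, start apoptosis through a death domain of their own. OX40 ligand (TNFSF4), the CD137 ligand (TNFSF9), CD70 and GITR ligand (TNFSF18) are co-stimulators of T cells, APRIL (TNFSF13) and BAFF (TNFSF13B) sustain B cells and plasma cells, TRAIL (TNFSF10) can kill tumour cells, TWEAK (TNFSF12) acts on epithelium and vessels, and LIGHT (TNFSF14) and TL1A (TNFSF15) act on lymphocytes and stroma.

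The measured quantity is the processed signal of a spot, a linear intensity after background subtraction. A log2 ratio is the difference between 2 arrays after each was scaled to its 75th percentile. The value after ± is the error that the scanner software assigned to the spots, carried into the ratio; it covers the measurement of a spot only. With 1 array per condition there is no replicate culture, so no test could be made, and a ratio past 2-fold is a description of these 4 arrays. In RNA from whole cultures, fewer cells that express a gene and less RNA per cell cannot be told apart.

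The arrays had similar intensities, with 75th percentile signals between 831 and 990.1, and between 61.1% and 68.2% of the probes were well above background by the software's mark. The MET siRNA array stood apart, with 5.58% of spots marked as outliers against 1.69% to 2.21% on the other arrays, and with 17.4 as its lowest signal well above background against 10.2 to 12.3. MET itself gave signals of 221451 under DMSO, 100492 under PHA665752, 190010 under sc siRNA and 77854 under MET siRNA. The MET siRNA array was 2.52-fold lower than the sc siRNA array (log2 ratio -1.33 ± 0.20) and PHA665752 was 1.90-fold lower than DMSO (-0.93 ± 0.20). Of 5 epithelial markers, all were well above background on 3 arrays and 4 on the MET siRNA array, where CDH1 (E-cadherin) was not and stood at 10.4 against 13.1 with sc siRNA, 33.0 with DMSO and 30.2 with PHA665752. Between the controls the log2 ratio of CDH1 was -1.08. The summed signals of the 5 ran from 27619 with PHA665752 to 40607 with DMSO, of which KRT18 alone gave 19850 and 33631. With PHA665752 the log2 ratios were 0.54 for EPCAM, 0.34 for KRT8, 0.084 for CDH1, 0.031 for KRT19 and -0.55 for KRT18. The signs of CDH1 and KRT19 changed under other processing. Of 4 mesenchymal markers, the 3 with a value on each array (CDH2, FN1 and ZEB1) were well above background on all 4. With PHA665752 their log2 ratios were 0.26 for CDH2 (N-cadherin), 1.96 for FN1 (fibronectin) and -0.73 for ZEB1 (a transcription factor). A second probe of ZEB1 gave -1.08, past 2-fold, and one of CDH2 gave 0.032. The FN1 ratio was past 2-fold in 10 of 10 alternatives of processing. Such tallies, here and below, include a signal floor of 5 and filters on dim probes, which leave a ratio measured on both arrays unchanged. The part of these marker shifts in the ligand ratios was not tested. Among 6 leukocyte markers, 4 were well above background on the DMSO, PHA665752 and sc siRNA arrays and 3 on the MET siRNA array. PTPRC, CD14 and CD53 were well above background on all 4 arrays and CD3E on none. The summed signal of all 6 lay between 237 and 296, and CD14 alone gave 140 with DMSO and 113 with PHA665752.

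Of the 10 ligands, 7 were well above background on all 4 arrays (TNFSF4, TNFSF9, CD70, TNFSF10, TNFSF12, TNFSF13 and TNFSF13B). TNFSF15 was well above background on the DMSO and sc siRNA arrays and on neither of the arrays with MET inhibited or depleted. TNFSF14 and TNFSF18 were well above background on no array. For 8 ligands a ratio could therefore be formed, 1 of them as a bound in both treatment pairs.

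**Figure D1:**
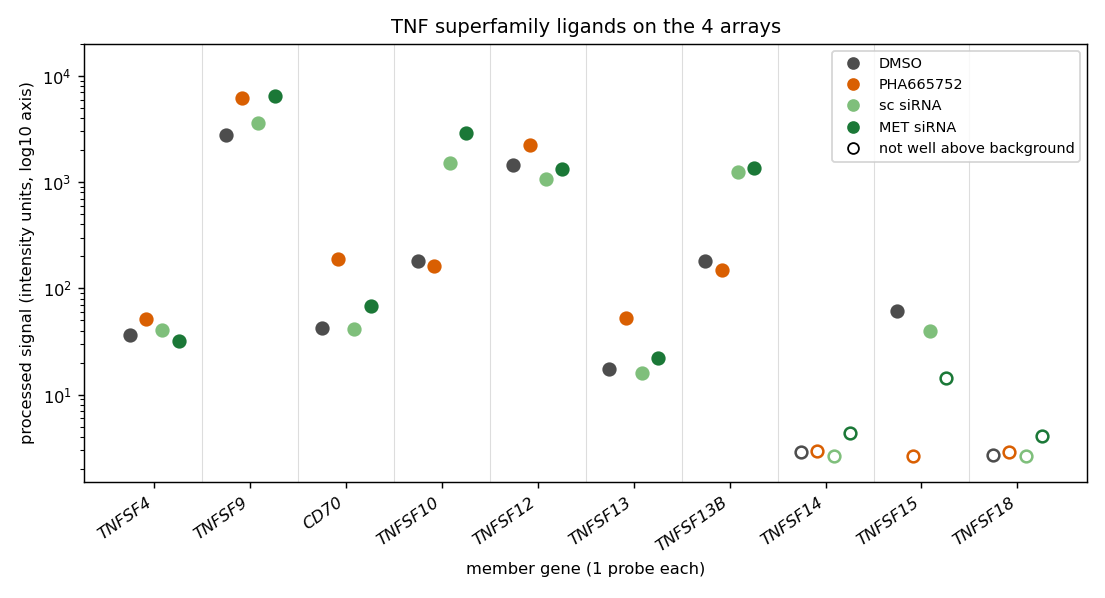
Processed signal (intensity units, log10 axis) of the probe that stands for each of the 10 ligands on the 4 arrays, 1 point per array, with open circles for values not well above background. TNFSF10 and TNFSF13B were higher on both siRNA arrays than on the DMSO and PHA665752 arrays, CD70 was highest with PHA665752, and TNFSF15 lost its mark for being well above background with PHA665752 and with MET siRNA. Heights of different genes are signals of different probes and are not to be compared with each other.

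In PHA665752 over DMSO, 3 ligands were higher past 2-fold (TNFSF9, CD70 and TNFSF13) and 1 was lower (TNFSF15). On the whole array 13.1% of the genes with a ratio were higher past 2-fold and 8.04% were lower in this pair, 21.1% in either direction. The median of the 8 ligands was a log2 ratio of 0.78, while that of all 14322 genes was 0.075. In MET siRNA over sc siRNA no ligand was higher past 2-fold and 1 was lower (TNFSF15), against 2.04% and 0.696% of all genes and 2.73% in either direction. The median of the 8 ligands was 0.36 there and that of all 13647 genes was -0.017. In sc siRNA over DMSO, which compares the 2 control conditions and shares its arrays with the other pairs, 2 ligands were higher past 2-fold (TNFSF10 and TNFSF13B) and none was lower, against 2.89% and 1.16% of all genes and 4.05% in either direction. With so few members, 1 gene more or less moves these counts far, and they describe the genes one by one rather than the family.

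Among all genes past 2-fold with PHA665752, 62.0% were higher, and this share was 42.5% when the arrays were scaled to the 50th percentile. In the siRNA pair it was 74.5%, and 40.2% when the arrays were scaled to the median of the probes well above background. That median covers different probes on each array, 61.1% of them with MET siRNA and 68.2% with sc siRNA. The share in the siRNA pair was 71.4% with the 50th percentile and 73.2% with quantile normalization. The 3 ligands higher with PHA665752 were higher past 2-fold under each of these scalings as well.

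**Figure D2:**
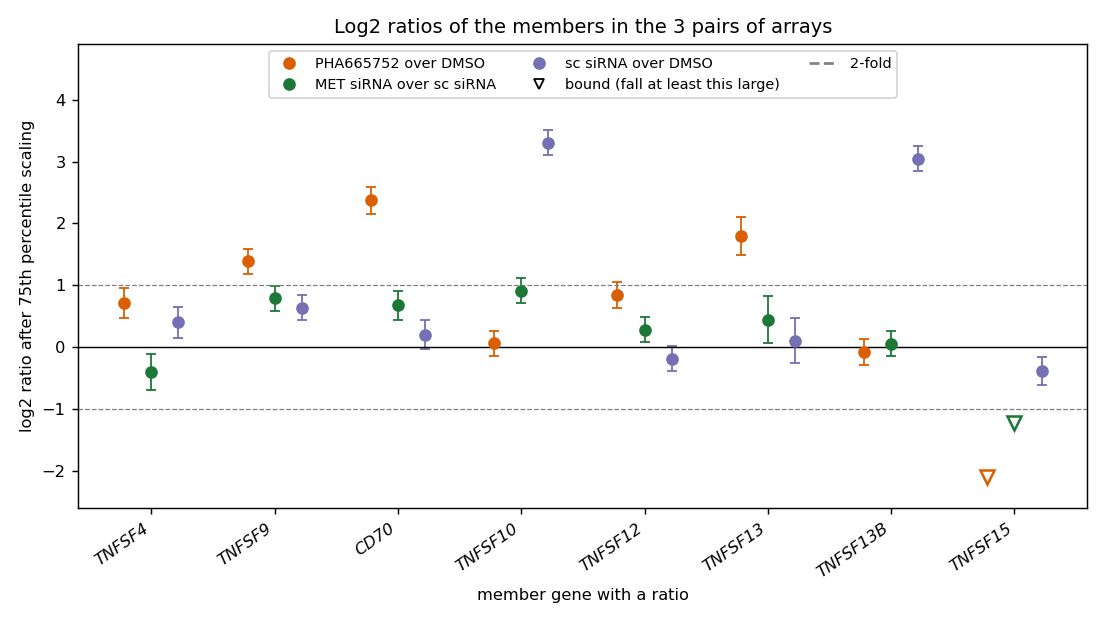
Log2 ratio after 75th percentile scaling for the 8 ligands with a ratio, in the 3 pairs of arrays, with bars for the software's error of the ratio, open triangles for bounds and dashed lines at 2-fold. CD70, TNFSF13 and TNFSF9 lay above the upper dashed line in PHA665752 over DMSO, TNFSF10 and TNFSF13B at 3.31 and 3.05 in sc siRNA over DMSO, and TNFSF15 below the lower line in both treatment pairs.

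Among the T cell co-stimulators, CD70, the ligand of CD27, had the largest measured difference with the inhibitor. Its probe (A_33_P3243449, NM_001252) read 42.7 under DMSO, 190.5 under PHA665752, 41.3 under sc siRNA and 68.1 under MET siRNA. The 2 controls were nearly equal, the MET siRNA array was above them and the PHA665752 array was highest. CD70 was 5.17-fold higher with PHA665752 than with DMSO, a log2 ratio of 2.37 ± 0.22 that ranked 207 from the top of 14322 genes. With MET siRNA it was 1.60-fold higher than with sc siRNA (0.68 ± 0.23), which missed 2-fold but ranked 583 of 13647 genes. With normexp, a background correction that models signal and background and adds an offset, the inhibitor ratio of CD70 was 1.44 and still past 2-fold. The offset was 50 signal units, which draws the ratios of dim probes toward 0. The controls differed by 0.20 ± 0.23, less than the software's error. Among the 13074 genes well above background on all 4 arrays, the patterns nearest to that of CD70 over the 4 arrays were those of DAB2, RNF207 and PRSS16, at distances of 0.082, 0.099 and 0.10 on the log2 scale after each gene was centred.

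TNFSF9, the ligand of the T cell receptor TNFRSF9 (CD137), was read by A_33_P3397763 (NM_003811). Its signals were 2764 under DMSO, 6229 under PHA665752, 3612 under sc siRNA and 6441 under MET siRNA. Both arrays with MET inhibited or depleted were above both controls, and sc siRNA was above DMSO. The log2 ratio was 1.39 ± 0.20 with PHA665752 (2.61-fold, rank 1054) and 0.79 ± 0.20 with MET siRNA (1.73-fold, rank 447), and sc siRNA over DMSO gave 0.64 ± 0.20. TNFSF9 thus lay at the 92.6 percentile of all genes in the inhibitor pair and at the 96.7 percentile in the siRNA pair, where few genes differed. The nearest patterns were those of ABHD4, NUTM2A and PLEKHF1, at distances of 0.055, 0.086 and 0.12.

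TNFSF4, the ligand of OX40 (TNFRSF4), was dim on each array (A_23_P126836, NM_003326), with signals of 36.5 under DMSO, 51.6 under PHA665752, 40.5 under sc siRNA and 31.8 under MET siRNA. It was highest with PHA665752 and lowest with MET siRNA. The log2 ratio was 0.71 ± 0.24 in the inhibitor pair, at the 79.8 percentile of all genes, and -0.40 ± 0.29 in the siRNA pair, at the 7.75 percentile. The signs of these ratios were opposite, and both stayed short of 2-fold. TNFSF4 is thereby the co-stimulator whose RNA did not lie in the same direction in the treatment pairs. The sc siRNA array was above DMSO by 0.40 ± 0.25, which is as large as the siRNA ratio.

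TNFSF18, the ligand of GITR (TNFRSF18), had a probe that the array carries at 10 spots (A_23_P115444, NM_005092). Its mean signal was 2.71 under DMSO, 2.91 under PHA665752, 2.66 under sc siRNA and 4.05 under MET siRNA, in each case not well above background. Of the 10 spots, 2 on the DMSO array and 1 on the PHA665752 array were marked as outliers and left out, the brightest of them at 17.7 and 18.0, while the spots used reached 6.98 at most. No ratio was formed, and the arrays allow no statement on TNFSF18 beyond this limit.

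Among the B cell ligands, TNFSF13 (A_23_P152620, NM_172088) had signals of 17.6 under DMSO, 52.5 under PHA665752, 15.9 under sc siRNA and 22.3 under MET siRNA. The PHA665752 array stood above the other 3, all of which lay near the lowest signals that counted as well above background. The log2 ratio was 1.79 ± 0.31 with PHA665752 (3.46-fold, rank 548) and 0.44 ± 0.38 with MET siRNA, at the 91.6 percentile. With normexp, whose offset draws ratios at such signals toward 0, the inhibitor ratio was 0.81 and no longer past 2-fold. RAD51AP2, PKIG and SAMD12 had the nearest patterns, at distances of 0.048, 0.069 and 0.084.

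TNFSF13B (A_23_P14174, NM_006573), which binds TNFRSF13C, TNFRSF13B and TNFRSF17 on B cells, differed between the siRNA arrays and the other arrays, and little within either treatment pair. Its signals were 182 under DMSO, 149 under PHA665752, 1258 under sc siRNA and 1351 under MET siRNA. Both siRNA arrays stood far above both other arrays. Relative to DMSO, the sc siRNA array was higher by a log2 ratio of 3.05 ± 0.21 (8.26-fold, rank 45 of 14274 genes). The treatment ratios were -0.072 ± 0.21 with PHA665752 and 0.057 ± 0.20 with MET siRNA, both smaller than the software's error, and their signs changed with the processing. The sc siRNA and DMSO arrays differ in transfection, in the siRNA and in the vehicle, and these cannot be told apart.

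TNFSF10, the ligand of the death receptors TNFRSF10A and TNFRSF10B, showed the same contrast between controls at 2 probes. The probe that stands for the gene (A_33_P3226810, NM_003810) read 182 under DMSO, 164 under PHA665752, 1506 under sc siRNA and 2929 under MET siRNA. The DMSO and PHA665752 arrays were low, the sc siRNA array was high and the MET siRNA array highest. The log2 ratio was 3.31 ± 0.20 for sc siRNA over DMSO (9.89-fold, rank 29 of 14274), 0.91 ± 0.20 for MET siRNA over sc siRNA (1.88-fold, rank 322 of 13647) and 0.064 ± 0.21 for PHA665752 over DMSO. It had the highest siRNA ratio of the 8 ligands, short of 2-fold, and that ratio starts from a control already raised over DMSO.

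The second TNFSF10 probe (A_23_P121253, NM_003810) is carried at 10 spots and shows the spread within an array. Its spots ran from 122.5 to 143.4 under DMSO, from 120.4 to 136.6 under PHA665752, from 1026 to 1183 under sc siRNA and from 2072 to 2355 under MET siRNA. The spots of DMSO and PHA665752 overlapped, and those of sc siRNA and MET siRNA overlapped with no other array. The log2 ratios of this probe were 3.31 for sc siRNA over DMSO, 0.94 for MET siRNA over sc siRNA and 0.17 for PHA665752 over DMSO. Spots share the RNA of a single culture, so the gaps between arrays are larger than the spotting error while the spread between cultures was not measured.

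**Figure D3:**
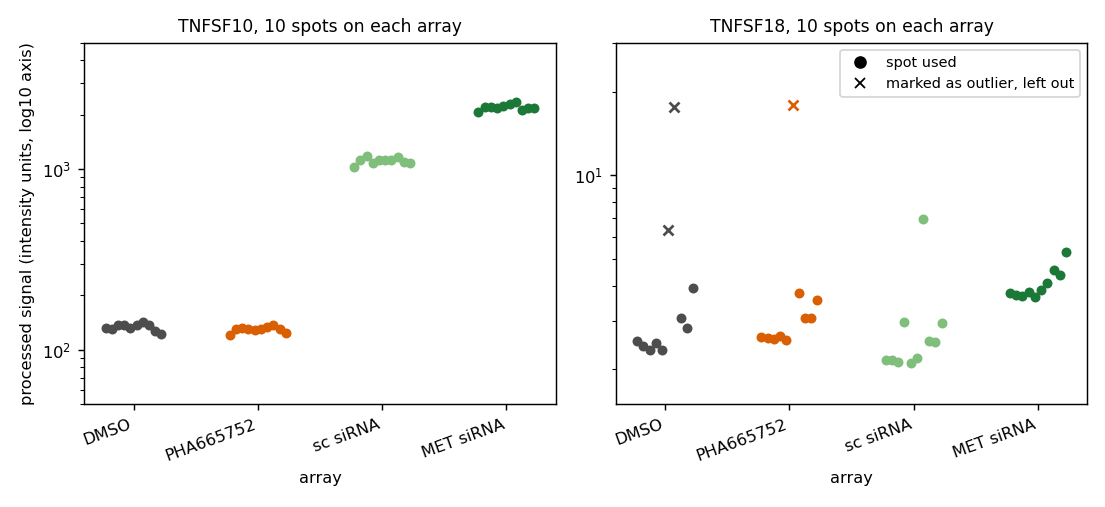
Processed signal (intensity units, log10 axis) of each of the 10 spots of the TNFSF10 probe A_23_P121253 and of the TNFSF18 probe A_23_P115444 on the 4 arrays, with crosses for spots marked as outliers and left out. The TNFSF10 spots of the sc siRNA and MET siRNA arrays form separate bands above those of DMSO and PHA665752, and the TNFSF18 spots that were used lie at or below 6.98.

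TNFSF10 and TNFSF13B were compared with all other genes over the 4 arrays, a search added after their values were seen. The nearest patterns to TNFSF10 were those of LAMP3, LGALS9C and IFIT3 at distances of 0.19, 0.39 and 0.55, and those of BIRC3 and PLSCR1 were among the nearest to TNFSF13B, at 0.40 and 0.42. IFIT3 and PLSCR1 are widely known as interferon-induced genes. Between the controls their log2 ratios were 3.30 for IFIT3 and 3.11 for PLSCR1. The search picked genes for being alike over these same arrays, so ratios of this size follow from the choice. The part of interferon in the ligand ratios was not tested. The distances were larger than those found for CD70, TNFSF9 and TNFSF13. Such a distance grows with the span of a gene over the 4 arrays. This span was 4.22 log2 units for TNFSF10 and 3.17 for TNFSF13B, against 2.37, 1.43 and 1.79 for CD70, TNFSF9 and TNFSF13. The distances alone therefore do not show which patterns were more alike.

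Promoter sequences were read for each ligand that had a RefSeq window of GRCh38.p14. These windows hold the 250 bases before the annotated start of a gene. Of the 10 ligands 8 had a window, while CD70 and TNFSF12 had none and were not searched. The windows of TNFSF10, TNFSF13B and TNFSF9 are printed because they are the 3 that hold GAAA, 2 free bases and GAAA again, a spacing typical of interferon response elements, and that of TNFSF15 because it holds the AP-1 letters TGANTCA. Capitals mark these letters on either strand, and also TATAAA where it occurs.
TNFSF10, chr3:172523431-172523680, minus strand: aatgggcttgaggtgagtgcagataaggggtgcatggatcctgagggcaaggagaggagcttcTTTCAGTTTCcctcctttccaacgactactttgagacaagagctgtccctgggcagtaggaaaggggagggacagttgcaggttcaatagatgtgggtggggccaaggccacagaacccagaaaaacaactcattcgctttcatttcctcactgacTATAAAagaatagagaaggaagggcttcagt
TNFSF13B, chr13:108269468-108269717, plus strand: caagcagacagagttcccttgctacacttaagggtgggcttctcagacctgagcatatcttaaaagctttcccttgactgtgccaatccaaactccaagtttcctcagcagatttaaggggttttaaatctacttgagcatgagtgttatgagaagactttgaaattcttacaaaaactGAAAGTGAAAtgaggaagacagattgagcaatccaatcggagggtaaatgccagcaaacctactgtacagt
TNFSF9, chr19:6530776-6531025, plus strand: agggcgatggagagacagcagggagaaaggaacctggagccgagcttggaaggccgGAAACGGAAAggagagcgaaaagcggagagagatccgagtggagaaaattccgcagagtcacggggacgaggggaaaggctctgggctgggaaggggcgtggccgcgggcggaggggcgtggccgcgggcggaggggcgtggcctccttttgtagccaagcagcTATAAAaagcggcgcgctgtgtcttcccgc
TNFSF15, chr9:114792531-114792780, minus strand: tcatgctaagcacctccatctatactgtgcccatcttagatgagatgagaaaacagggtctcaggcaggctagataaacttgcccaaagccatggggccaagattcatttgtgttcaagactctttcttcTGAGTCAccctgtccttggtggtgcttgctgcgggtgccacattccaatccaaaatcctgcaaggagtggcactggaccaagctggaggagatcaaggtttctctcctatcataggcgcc

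This interferon motif, searched like all others on both strands, lay 187 to 178 bases before the start of TNFSF10 (on the opposite strand), 71 to 62 bases before the second of the annotated starts of TNFSF13B and 194 to 185 bases before the start of TNFSF9. Of 35116 windows of this length, 3.02% held them. TATAAA, found in 3763 of the 35116 windows, lay 31 to 26 bases before the start of TNFSF10 and 30 to 25 bases before that of TNFSF9. TGANTCA, found in 6.57% of windows, lay 120 to 114 bases before the start of TNFSF15 and also in the windows of TNFSF14. A loose NF-kappaB motif, GGG and CC with 5 free bases between them, occurred in TNFSF9, TNFSF10, TNFSF13 and TNFSF14 and in 54.4% of all windows, and the SP1 letters GGGCGG in TNFSF9, TNFSF13 and TNFSF14 and in 42.6%, in TNFSF13 partly within the NF-kappaB letters. The CRE letters TGACGTCA and the FOXO letters GTAAACA were in no window of a ligand and in 1.65% and 2.98% of all windows. A run of letters is not a measured binding site, and its part in any ratio was not tested.

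TNFSF12, whose receptor is TNFRSF12A, had 2 probes for NM_003809. The brighter probe (A_24_P245298) read 1449 under DMSO, 2244 under PHA665752, 1068 under sc siRNA and 1341 under MET siRNA. PHA665752 was highest, and the other 3 arrays lay close together. The log2 ratio was 0.85 ± 0.20 with PHA665752 (1.80-fold) and 0.28 ± 0.20 with MET siRNA. The dimmer probe (A_33_P3406623), at 27.5, 44.7, 20.7 and 28.5 in the same order, gave 0.92 ± 0.25 and 0.42 ± 0.32. Both probes were above 0 in both treatment pairs, short of 2-fold, but with the arrays scaled to the median of the probes well above background the siRNA ratio of the brighter probe was -0.018. No probe was named for the read-through transcript of TNFSF12 and TNFSF13, so its RNA cannot be told apart from that of either gene at these probes.

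TNFSF15, a ligand of TNFRSF25 and of the decoy receptor TNFRSF6B, was the only one of the 8 ligands lower past 2-fold in either treatment pair. Its probe (A_23_P94754, NM_005118) read 61.3 under DMSO, 2.65 under PHA665752, 39.4 under sc siRNA and 14.4 under MET siRNA. The values with PHA665752 and MET siRNA were not well above background. Set against the lowest signal that was well above background on the dim array, TNFSF15 was at least 4.28-fold lower with PHA665752 than with DMSO (log2 ratio -2.10 or below) and at least 2.34-fold lower with MET siRNA than with sc siRNA (-1.23 or below). The first bound lies at the 1.53 percentile of all genes and the second at the 0.41 percentile. The high limit of the MET siRNA array sets the second bound, since 14.4 exceeds the lowest signals well above background on the other 3 arrays. The bounds leave out the software's error, which was 28.0% for the signal of 14.4. With plain background subtraction the bounds were -2.15 and -1.05. The controls differed by -0.38 ± 0.23. With normexp the ratios were -0.64 and -0.45, so neither was past 2-fold. Its offset of 50 draws ratios at such signals toward 0, so these values say little on whether the fall passed 2-fold.

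TNFSF14 (A_24_P237036, NM_003807), a ligand of TNFRSF14 and LTBR, read 2.89, 2.92, 2.67 and 4.32 with DMSO, PHA665752, sc siRNA and MET siRNA. None of these was well above background and no ratio was formed.

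Some of the ligands are next to each other in the genome, with no protein-coding gene between them in RefSeq. TNFSF9, CD70 and TNFSF14 follow each other on chromosome 19, where TNFSF9 and CD70 were higher past 2-fold with PHA665752 and TNFSF14 was not well above background on any array. TNFSF18 and TNFSF4 are neighbours on chromosome 1, the first of them not well above background and the second dim. TNFSF12 and TNFSF13 are neighbours on chromosome 17, with 0.85 and 1.79 in the inhibitor pair and 0.28 and 0.44 in the siRNA pair.

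Of the 8 ligands with a ratio in both treatment pairs, 6 had the same sign in both. Over all genes with both ratios this held for 69.6%, and 6 of 8 is 75%, which is near that background. TNFSF4 and TNFSF13B were the exceptions in the main processing. Among the 6, TNFSF10 with PHA665752 and TNFSF12 with MET siRNA changed sign under other processing, reaching -0.18 and -0.018.

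The receptors of these ligands were read as a list of 17 genes, to show which partners of the ligands the same cells transcribed. In PHA665752 over DMSO 15 had a ratio, of which 1 was higher and 1 lower past 2-fold, beside 21.1% of all genes in either direction, with a median of 0.28. In MET siRNA over sc siRNA 13 had a ratio, none was past 2-fold in either direction, beside 2.73% of all genes, and the median was 0.022. In sc siRNA over DMSO 15 had a ratio, none was higher and 1 was lower past 2-fold, with a median of -0.057. Of all genes 4.05% were past 2-fold in either direction in that pair.

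TNFRSF10C, a decoy receptor of TNFSF10 that lacks a death domain, was the receptor higher with PHA665752, with signals of 84.0, 333, 63.8 and 110.4 with DMSO, PHA665752, sc siRNA and MET siRNA. Its log2 ratios were 2.20 ± 0.21 in the inhibitor pair and 0.75 ± 0.22 in the siRNA pair, so that the decoy was higher in both. TNFSF10 itself was at 0.064 in the inhibitor pair and at 0.91 in the siRNA pair. The death receptors TNFRSF10A and TNFRSF10B had -0.73 and -0.55 with PHA665752 and -0.39 and 0.19 with MET siRNA. The decoy TNFRSF10D was at -0.69 and -0.20, and it was the receptor lower past 2-fold in sc siRNA over DMSO, at -1.01, which was past 2-fold in 8 of 10 alternatives. TNFRSF11B (osteoprotegerin), a soluble receptor, gave only a bound of 0.46 with PHA665752 and no ratio with MET siRNA.

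TNFRSF17 (BCMA), which binds TNFSF13 and TNFSF13B, was the receptor lower with PHA665752. Its signals were 59.1 under DMSO, 8.31 under PHA665752, 27.2 under sc siRNA and 17.0 under MET siRNA, of which the second and the last were not well above background. It was at least 4.13-fold lower with PHA665752 (-2.04 or below), and the bound was -0.69 with MET siRNA. It was past 2-fold in 8 of 9 alternatives, and -0.49 in the other. TNFRSF13C had 0.40 and 0.022, and TNFRSF13B was well above background on no array.

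No receptor of the co-stimulators passed 2-fold. TNFRSF9, the partner of TNFSF9, had -0.097 with PHA665752, 0.42 ± 0.21 with MET siRNA, at the 90.7 percentile of all genes, and 0.57 between the controls, TNFRSF4 had 0.31 and 0.097, and CD27 had 0.28, no ratio in the siRNA pair and -0.54 between the controls. The signs of the 3 inhibitor ratios turned under at least 1 other processing. TNFRSF18 was well above background on no array.

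TNFRSF12A, the receptor of TNFSF12, was bright on each array and lower in both treatment pairs, at -0.75 ± 0.20 and -0.30 ± 0.20, while TNFSF12 was at 0.85 and 0.28 (-0.018 in the siRNA pair under one scaling). TNFRSF25, the receptor of TNFSF15, was at -0.59 ± 0.20 and -0.56 ± 0.20, and its second probe at -0.67 and -0.54. TNFRSF6B, the decoy of TNFSF14 and TNFSF15, was at 0.34 and 0.54, though its second probe gave 0.076 and 0.0084. TNFRSF14 had 0.66 and 0.027, and LTBR had 0.32 and -0.058. None of these passed 2-fold.

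**Figure D4:**
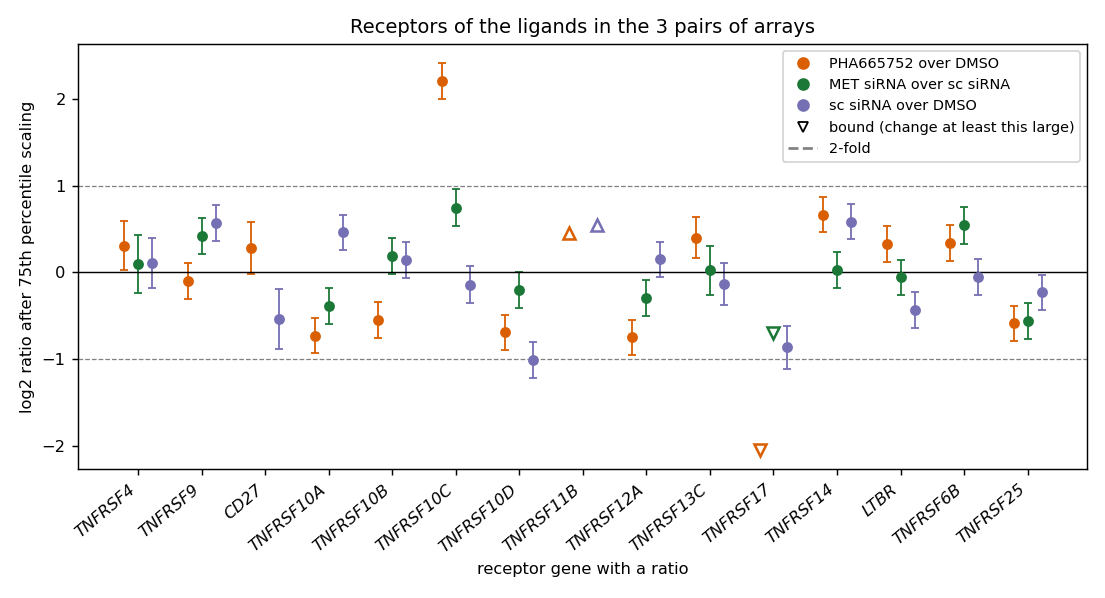
Log2 ratio after 75th percentile scaling of the 15 receptors with a ratio, in the 3 pairs of arrays, with bars for the software's error, open triangles for bounds and dashed lines at 2-fold. TNFRSF10C at 2.20 and the bound of TNFRSF17 at -2.04 lie past 2-fold with PHA665752, TNFRSF10D at -1.01 in sc siRNA over DMSO, and no receptor does in MET siRNA over sc siRNA.

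The remaining ligands of the superfamily on the array were nearly all dim. Of 8 (TNF, LTA, LTB, FASLG, CD40LG, TNFSF8, TNFSF11 and EDA), EDA alone had a ratio in either treatment pair, 0.30 in the inhibitor pair and 0.15 in the siRNA pair. TNF was well above background on the sc siRNA array only, at 14.1. The proteases ADAM10, ADAM17 and FURIN, which cut ligands of the family from the membrane or process them, were at 0.070, 0.80 and 0.26 with PHA665752 and at -0.029, 0.30 and 0.20 with MET siRNA, all short of 2-fold.

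Downstream of the receptors, 12 of 14 adaptors and NF-kappaB subunits had ratios. With PHA665752, MAP3K14 (the NF-kappaB inducing kinase, 1.34) and CYLD (a deubiquitinase, 1.04) were higher past 2-fold, and the adaptors TRAF3 (-1.34) and TRAF2 (-1.01) were lower, which is 4 of 12 beside 21.1% of all genes, with a median of -0.075 over the list. TRAF2 was past 2-fold in 7 of 10 alternatives (-0.85 at its smallest) and CYLD in 6 of 10 (0.79 at its smallest). The second probe of TRAF2 gave -0.84. With MET siRNA MAP3K14 was again higher (1.03, past 2-fold in 7 of 10 alternatives) and no gene of the list was lower past 2-fold. This stands beside 2.73% of all genes in either direction. Of the list, 7 of 12 were below 0, with a median of -0.042. BIRC3, an inhibitor of apoptosis, was the gene of the list past 2-fold between the controls, at 3.09, beside 4.05% of all genes in either direction.

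Of 15 NF-kappaB response genes, 13 had a ratio with PHA665752, of which 3 were higher past 2-fold and 4 lower, beside 21.1% of all genes in either direction. ICAM1 (an adhesion molecule, 1.53), IL6 (1.44) and BCL3 (1.17) were higher, while the chemokines CCL20 (-2.98), CXCL8 (-1.57) and CXCL1 (-1.31) and the inhibitor TNFAIP3 (-1.96) were lower, so that the list had no common direction and a median of 0.23. CXCL8 was past 2-fold in 8 of 10 alternatives and ICAM1, IL6 and BCL3 in 9 of 10. With MET siRNA IL6 (1.22) was higher and CCL20 (-1.04) lower past 2-fold, beside 2.73% of all genes in either direction. Both were past 2-fold in 8 of 10 alternatives, and the median over 14 genes was 0.31. In sc siRNA over DMSO 4 of 13 were higher past 2-fold and none was lower, beside 4.05% of all genes in either direction, with a median of 0.73. These were BIRC3, IL6 (2.89), CXCL8 (1.71) and TNFAIP3 (1.22).

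Several ligands of the family are products of leukocytes in other settings. In these arrays CD53 and ITGAX, leukocyte markers, had log2 ratios of 1.08 and 1.02 with PHA665752, at signals of 107.6 and 32.4 there. These ratios were past 2-fold in 5 and 6 of 10 alternatives, including those that leave a measured ratio unchanged. At their lowest they were 0.67 and 0.47. PTPRC and CD14 of the same list were at -0.031 and -0.094, and 4 of the 6 markers of that list were well above background on the PHA665752 array as on the DMSO array. A dimmer PTPRC probe, at 11.7 with DMSO and 21.2 with PHA665752, gave 1.07 ± 0.39, past 2-fold. The part of these RNAs in the ligand ratios was not tested.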

How the data were processed

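The authors hybridised Cy3-labelled RNA of 4 cultures to Agilent human V2 arrays and deposited scanner files, written by Feature Extraction 11.5.1.1 per the file headers. The processed signal deposited there is a linear intensity after background subtraction, without scaling between arrays. Each array held 43118 spots for 34127 probes. Spots with the deposited outlier marks were left out, log2 values were averaged over the spots of each probe, and the array's 75th percentile was subtracted. Of the deposited marks (other), the one for being well above background decided whether a ratio was measured, a bound (against the lowest signal well above background on the dim array, or the probe's own if higher) or not formed.

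Probes were named through accessions in a RefSeq table of GRCh38.p14, used for names and neighbours; 25771 probes received a name. The probe brightest on average over the arrays stood for its gene. The text names all 10 members, each receptor with a ratio, other listed genes past 2-fold (at most 5 per list) and the 3 genes nearest in Euclidean distance over the 4 centred values. One of the genes nearest to TNFSF13B and one leukocyte marker are not reported here. Members and lists were chosen with earlier results of these data known.

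The noise between spots was 0.078 for a log2 ratio, from probes with 5 or more usable spots of 10. Precision is limited by the number of arrays, 1 per condition. The calculation was tested on simulated data, where 200 of 200 changed probes were recovered. Those probes were bright and their changes lay well past 2-fold, so dim probes and smaller changes were not covered. The deposited series matrix, equal to the processed signal within 0.05 for probes spotted once, was an alternative only. Its column medians were 91.2, 93.0, 81.4 and 86.7 (DMSO, PHA665752, sc siRNA and MET siRNA). Python 3.11.15, numpy 2.4.6, pandas 2.3.3, matplotlib 3.10.9, R 4.3.3 and limma 3.58.1 (normexp) were used.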

Additional observations from a re-analysis of the deposited data

Results flagged for a closer look

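The log2 ratios of 2 ligands lay in opposite directions in the treatment pairs. TNFSF4 was at 0.71 in PHA665752 over DMSO and at -0.40 in MET siRNA over sc siRNA. TNFSF13B was at -0.072 and 0.057, both within the software's error of the ratio. With 1 array per condition, the difference between the pairs was not tested.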

How the results depend on the processing

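No paired analysis was possible because each condition had a single array, and for the same reason no array could be left out. There were 11 alternatives, plus the second TNFSF10 probe, chosen after seeing the data, which moved nothing beyond the limits. Of the alternatives, the floor of 5 and both filters on dim probes leave a ratio measured on both arrays as it is, so they show nothing about its stability. The median of the ligands with PHA665752 (0.78) was 0.53 with the 50th percentile, 0.64 with quantile normalization, 0.69 with the median of the probes well above background, 0.54 with normexp and 0.52 with no filter on dim probes. The median with MET siRNA (0.36) was 0.063 with the median of the probes well above background, 0.22 with normexp, 0.44 with probes required to be well above background on both arrays and 0.50 with no filter. The median between the controls (0.30) was 0.20 with the 50th percentile, 0.18 with quantile normalization, 0.49 with plain background subtraction and 0.22 with no filter. The number of ligands lower past 2-fold was 0 in both treatment pairs with normexp, where TNFSF15 was at -0.64 and -0.45, and with probes required to be well above background on both arrays, where TNFSF15 had no ratio. The offset of normexp draws the ratios of dim probes such as that of TNFSF15 toward 0. With no filter the TNFSF15 ratios were -4.32 and -1.50. The 50th percentile moved the median of all genes with PHA665752 by -0.25, no filter moved it by 0.13, and the median of the probes well above background moved that with MET siRNA by -0.30, so a ligand's ratio smaller than these shifts has no settled sign. TNFSF10 ranged from -0.18 to 0.10 with PHA665752, TNFSF13B from -0.32 to 0.0077 with PHA665752 and from -0.24 to 0.073 with MET siRNA, and TNFSF12 reached -0.018 with MET siRNA. With normexp 84.3% of the genes past 2-fold between the controls were higher, against 71.5% in the main processing.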
